A study of Bos taurus with 16 samples.

Results

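The liver endothelium was described through 10 marker genes in 16 steers. The 6 sinusoidal markers were STAB1, STAB2, LYVE1, CLEC4G, CLEC1B and OIT3, and the 4 pan-endothelial and large-vessel markers were PECAM1, CDH5, VWF and PLVAP. Each was read from the transcript cluster, the array's unit for 1 gene locus, whose annotation names that gene symbol and no other. All 10 genes were found, each with 1 transcript cluster, among 18444 gene symbols with a value and 26773 transcript clusters in all. The transcript clusters were 12798437 for STAB1, 12857550 for STAB2, 12726925 for LYVE1, 12884078 for CLEC4G, 12869222 for CLEC1B, 12827991 for OIT3, 12767437 for PECAM1, 12749712 for CDH5, 12856735 for VWF and 12879890 for PLVAP.

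The animals were crossbred male beef cattle, just under 1 year old at the start of the trial, that had free access for 78 days to a finishing diet rich in corn and wet distillers grains. From a larger cohort, 4 steers were taken in each of 4 quadrants of body weight gain and feed intake because they lay farthest from the joint mean, which gave 4 groups named high gain-high intake (HH), high gain-low intake (HL), low gain-high intake (LH) and low gain-low intake (LL). Breed makeup differed between the groups, so that breed and group cannot be fully told apart, and the groups were selected by phenotype rather than assigned to a treatment. RNA came from the right lobe of the liver, and 1 array was run per steer, so each array was a separate animal. The values are log2 array values, on which a difference of 1 is a doubling of signal, and they can be compared between steers for 1 gene but not between genes. In whole liver RNA, fewer cells of a type and less RNA per cell cannot be told apart. Steers are numbered 1 to 4 within each group as names only.

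Liver sinusoids are capillaries lined by endothelial cells with open pores and no continuous basement membrane, which let plasma reach the hepatocytes. In mammals these cells take up waste molecules from blood through scavenger receptors and lectins, and they carry little of the adhesion and clotting apparatus of ordinary vessels. Endothelium of the portal vein, hepatic artery and central vein, in contrast, stores von Willebrand factor and has a continuous lining. The 10 genes therefore cover both the uptake receptors of the sinusoid and the junction, adhesion and clotting genes of vessels in general.

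The level of each marker was set against all transcript clusters of the same array. STAB1, STAB2, LYVE1, CLEC4G, CLEC1B, OIT3, PECAM1 and CDH5 were above the median of all transcript clusters on each of the 16 arrays. PLVAP was below that median on 2 arrays and VWF on 12, and none of the 10 genes was among the lowest 25% of values on any array. VWF, the defining gene of large-vessel endothelium here, ranged from 6.92 to 7.68 over the steers. No test of detection was made, so whether VWF lay above background was not tested.

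By their medians the arrays formed 2 sets of 8, separated at the widest gap in the sorted medians. No label gives their origin, but the sets were the first 8 and the last 8 arrays in the order of the series. Array medians ranged from 7.41 to 7.47 in the first set and from 7.16 to 7.28 in the second. Set 1 held 1 HH, 2 HL, 2 LH and 3 LL steers, and set 2 the others. With group in the limma model, 9 of the 10 markers were lower in set 2, CDH5 by -0.84 (adjusted p = 0.0328) and CLEC4G by -0.76 (adjusted p = 0.0183), the only 2 past an adjusted p of 0.05, against 29.8% of all transcript clusters. VWF was the exception, with a fitted difference of 0.0026. Set 2 was defined by its lower array medians, so lower values there follow in part from the split itself. The share of all transcript clusters lower in set 2 was not taken, so the 9 of 10 only describe the markers. Contrasts within each set follow the main ones described for single genes below.

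Over the 4 groups, the markers differed little. Only CLEC1B had an unadjusted p at or below 0.05 in limma's moderated F, 1 of 10, where 2.33% of all transcript clusters did, and after Benjamini-Hochberg adjustment over all 26773 transcript clusters no marker and no transcript cluster passed 0.05. The ordinary F, the test named in the methods, called the same marker, at 2.72% of all transcript clusters, and so did a fit that had the array sets as a block, at 4.15%. After quantile normalization CLEC1B was not called (limma unadjusted p = 0.0555). The highest group mean lay in the HL group for 6 markers and in the LL group for 4, so a low intake group was on top for all 10. The share of all transcript clusters with a low intake group on top was not taken, so these counts are a description. Of all transcript clusters, 57.6% had an intake effect below 0. In 5 markers, CLEC4G and the 4 pan-endothelial and large-vessel genes, the range of the 4 group means was smaller than the pooled SD between steers of a group. No pair of groups was fully separated for any of the 10 genes, in 0 of 60 pairs. The share of separated pairs over all transcript clusters was not taken, so this count only describes the values.

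**Figure D1:**
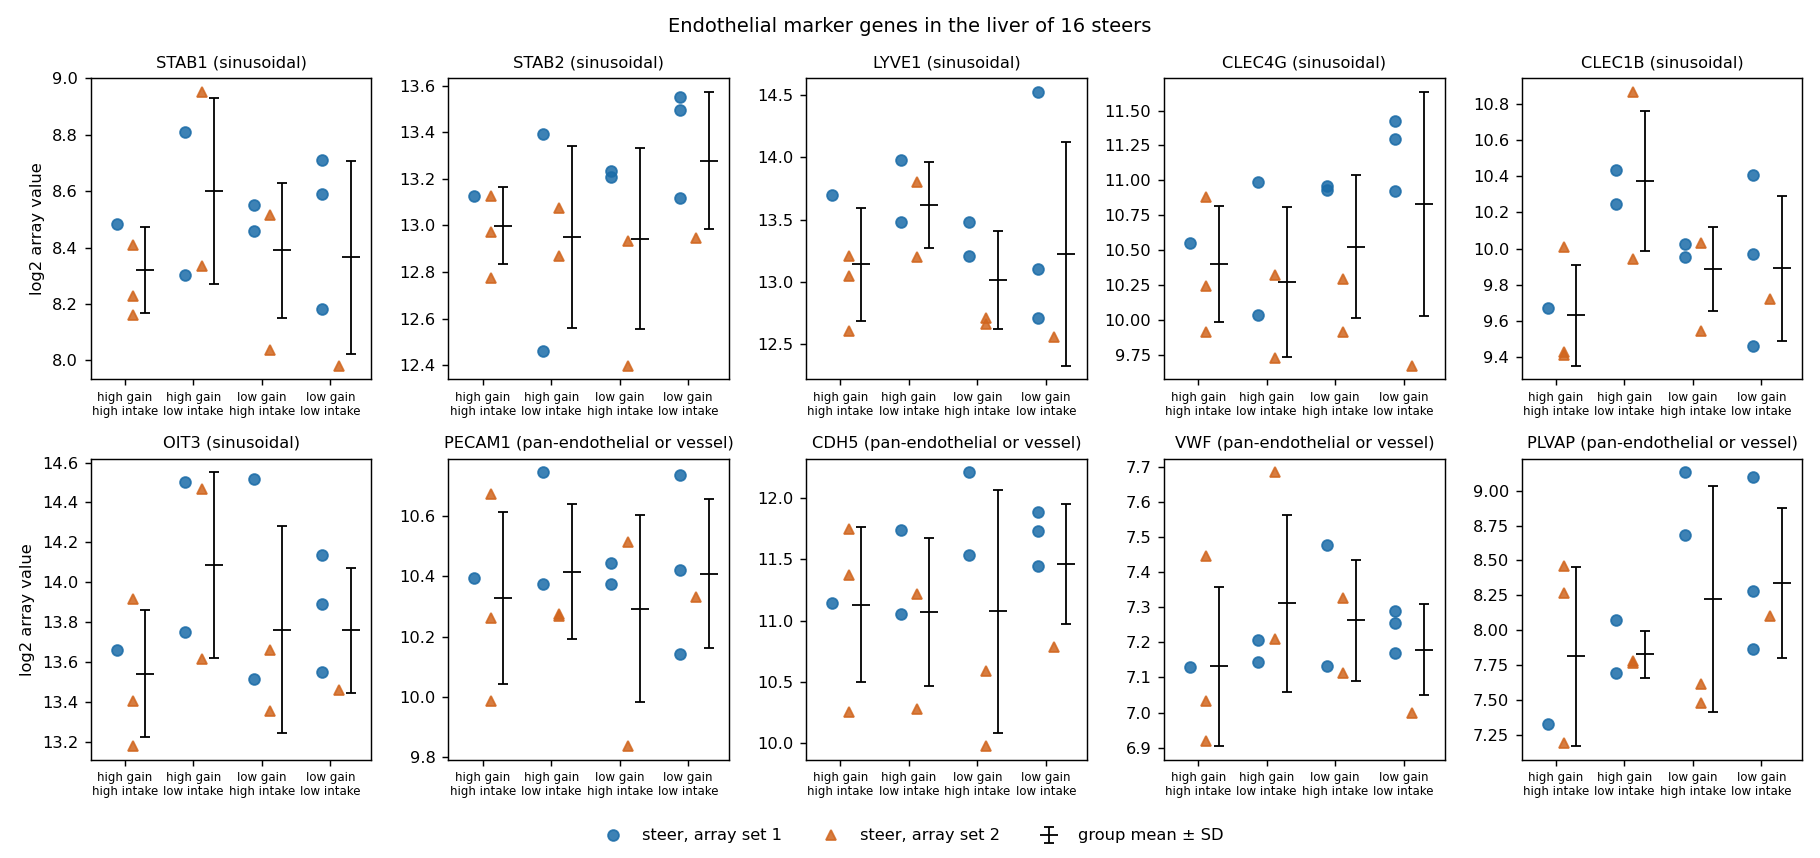
Log2 array value (y axis) of each of the 10 endothelial markers in each steer by group (x axis), with circles for array set 1, triangles for array set 2 and bars for the group mean ± SD of 4 steers. The ranges of all groups overlap in every panel, and CLEC1B has the widest separation of group means relative to the spread between steers.

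CLEC1B encodes a C-type lectin-like receptor for podoplanin, known from platelets and, in mouse and human liver, also from sinusoidal endothelium. In the HL group its values were 10.25, 10.44, 9.94 and 10.86. The HH steers had 9.67, 9.41, 10.01 and 9.43. In the LH group it was 10.02, 9.95, 9.55 and 10.03, and in the LL group 9.97, 10.40, 9.46 and 9.72. The HL group was thus the highest and the HH group the lowest, with an overlap of 1 steer in each, steer 3 of both groups.

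The means of CLEC1B were 10.37 ± 0.38 in the HL group, 9.89 ± 0.40 in the LL group, 9.89 ± 0.23 in the LH group and 9.63 ± 0.28 in the HH group (SD, n = 4). The step from the first to the second of these, 0.48, was larger than the pooled SD of 0.33, the next was 0.0017 and the last, 0.26, was smaller than it. The extreme groups differed by 0.74, or 1.67-fold. Limma's moderated F gave an unadjusted p of 0.0414 (adjusted p = 1.00), the ordinary F 0.0497 and the two-sided exact permutation test over all partitions of the steers 0.0501.

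Gain by itself did not separate CLEC1B (effect 0.11, standard error 0.17). The intake effect, the mean of the high intake groups minus that of the low intake groups, was -0.37 with a 95% interval from -0.72 to -0.019 (limma unadjusted p = 0.0401, exact permutation p = 0.0648), and it was -0.31 and -0.36 within array sets 1 and 2. At high intake the gain difference was -0.26, and at low intake it was 0.48. The interaction, the first minus the second, was -0.74, with a 95% interval from -1.45 to -0.035 (limma unadjusted p = 0.0409, exact permutation p = 0.0662), and -0.71 and -0.85 within the sets. With the array sets as a block, the p over the 4 groups was 0.0471 and that of the intake effect 0.0595.

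The call rested on single steers. Leaving out any 1 of 8 steers raised limma's unadjusted p over the 4 groups above 0.05, the most for HL steer 4, without which it was 0.160. The intake effect lost its call without any 1 of 8 steers, the least negative value being -0.29 without LL steer 2, and the interaction without any 1 of 10, to -0.58 without HL steer 4. The sign did not change in any of these fits. Of 9 genes of platelets and megakaryocytes, which also express CLEC1B, none had an unadjusted p at or below 0.05, and the mean log2 value over the 9 was 6.91, 6.93, 6.95 and 6.91 in the HH, HL, LH and LL groups. The spread of the platelet list over the steers of all groups was 6.76 to 7.06, below the lowest array median of 7.16. The part of platelets in the CLEC1B values was not tested.

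The stabilins showed no such separation. STAB1 and STAB2 encode large scavenger receptors of the sinusoidal endothelium, STAB2 being the main hyaluronan clearance receptor. STAB1 was 8.48, 8.16, 8.23 and 8.41 in the HH steers and 8.81, 8.30, 8.33 and 8.95 in the HL steers. It was 8.55, 8.46, 8.52 and 8.04 at LH and 8.18, 8.59, 8.71 and 7.98 at LL. Its highest mean was in the HL group, 8.60, and its lowest in the HH group, 8.32, as for CLEC1B and OIT3. The group means of STAB1 lay within 0.28 of each other, with a pooled SD of 0.28 (limma unadjusted p = 0.552).

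STAB2 was 13.13, 12.78, 13.12 and 12.97 in the HH group and 13.39, 12.46, 12.87 and 13.08 in the HL group. The LH steers had 13.21, 13.23, 12.93 and 12.40 and the LL steers 13.12, 13.50, 13.55 and 12.95. The last group had the highest mean, 13.28 ± 0.29, and the other group means were 12.94 to 13.00 (SD, n = 4, limma unadjusted p = 0.438). The lowest steer was LH steer 4 and the highest LL steer 3, and all 4 ranges overlapped.

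LYVE1 is a hyaluronan receptor of sinusoidal and lymphatic endothelium, and OIT3 a secreted protein of the zona pellucida domain family found in liver. Both had their highest means in the HL group, as CLEC1B and STAB1 did. LYVE1 was 13.98, 13.48, 13.20 and 13.81 in that group, 13.70, 12.61, 13.21 and 13.04 at HH, 13.48, 13.21, 12.71 and 12.67 at LH and 13.11, 12.71, 14.52 and 12.56 at LL. The single highest value belonged to LL steer 3, in a group that also held the lowest one. The group means were 13.62, 13.14, 13.02 and 13.22 in this order (limma unadjusted p = 0.422). The gain effect was 0.26 with all steers, 0.32 and 0.61 within array sets 1 and 2, and 0.41 with the sets as a block. It was 0.48 without LL steer 3, where its limma unadjusted p was 0.0266.

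OIT3 was 14.50, 13.75, 13.62 and 14.47 in the HL group and 13.66, 13.18, 13.92 and 13.41 in the HH group. It was 14.52, 13.52, 13.66 and 13.35 in the LH group and 13.55, 13.89, 14.14 and 13.46 in the LL group. The 3 highest steers came from 2 groups, HL and LH. The intake effect was -0.27 (95% interval -0.69 to 0.15) and became -0.40 without LH steer 1 (limma unadjusted p = 0.0415), and the interaction was -0.55 (95% interval -1.39 to 0.30). Within array sets 1 and 2 the intake effect was -0.15 and -0.25 and the interaction -0.63 and -0.59. Both had the sign of CLEC1B, and neither passed the test with all 16 steers.

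CLEC4G, a lectin of sinusoidal endothelium and lymph node, ran the other way along the gain axis. Its values were 10.92, 11.30, 11.43 and 9.67 in the LL group and 10.93, 10.96, 10.29 and 9.91 in the LH group. HH steers had 10.55, 9.91, 10.24 and 10.88 and HL steers 10.99, 10.03, 9.73 and 10.32. The LL group thus held both the highest and the lowest steer. The gain effect was -0.34 (95% interval -0.91 to 0.22, limma unadjusted p = 0.217), -0.55 within array set 1 and 0.30 within array set 2, so its sign differed between the sets. Without LL steer 4, the only one of its group in set 2, it was -0.54 (limma unadjusted p = 0.0293).

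Among the pan-endothelial and large-vessel genes, PLVAP and CDH5 had the wider spread. PLVAP encodes the protein of the diaphragms that close endothelial pores in most capillaries, and CDH5 is VE-cadherin of the endothelial junction. PLVAP was 8.68, 9.13, 7.61 and 7.48 in the LH group and 7.87, 8.28, 9.10 and 8.10 in the LL group. At high gain it was 7.33, 7.19, 8.27 and 8.46 with high intake and 8.07, 7.69, 7.78 and 7.76 with low intake. The 3 highest steers were all low gain steers, but the LH group also reached down to 7.48.

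The gain effect of PLVAP was -0.46 (95% interval -1.03 to 0.11, limma unadjusted p = 0.107, exact permutation p = 0.114), the largest in size of the 10 markers. It was -1.05 within array set 1 and 0.048 within array set 2. Without LH steer 4 it was -0.59 (limma unadjusted p = 0.0425). Of the 16 fits with a steer left out, only this 1 passed 0.05, and the highest limma unadjusted p was 0.239.

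CDH5 was 11.15, 10.26, 11.37 and 11.75 in the HH steers and 11.74, 11.05, 10.28 and 11.22 in the HL steers. It was 11.53, 12.21, 10.59 and 9.98 at LH and 11.44, 11.73, 11.88 and 10.78 at LL. Steers of the LH group alone spanned the whole range of CDH5, and the group means, 11.07 to 11.46, differed by less than the pooled SD of 0.70 (limma unadjusted p = 0.798).

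PECAM1, an adhesion molecule of endothelial junctions also found on platelets and leukocytes, was the most even marker across the groups. Its values were 10.39, 9.99, 10.67 and 10.26 in the HH, 10.74, 10.37, 10.27 and 10.27 in the HL, 10.44, 10.37, 10.51 and 9.84 in the LH and 10.14, 10.73, 10.42 and 10.33 in the LL steers. The group means lay between 10.29 and 10.42 (limma unadjusted p = 0.909).

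VWF, the clotting and platelet-binding protein stored in vessel endothelium and in platelets, was 7.13, 6.92, 7.45 and 7.03 in the HH, 7.21, 7.14, 7.68 and 7.21 in the HL, 7.13, 7.48, 7.11 and 7.33 in the LH and 7.17, 7.29, 7.25 and 6.999 in the LL steers. HL steer 3 stood above the others of its group. The group means were 7.13 to 7.31 with a pooled SD of 0.20 (limma unadjusted p = 0.717).

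Along the gain axis, the effects of the 10 markers ran from -0.46 to 0.26, with 4 of 10, against 58.3% of all transcript clusters, below 0. None had an unadjusted p at or below 0.05 in limma, where 3.48% of all transcript clusters did. Their median was 0.011, against -0.037 over all transcript clusters. The 95% intervals show what differences in gain the 16 arrays could not resolve. They were narrowest for VWF, from -0.25 to 0.25, and widest for CDH5, from -0.84 to 0.51.

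Along the intake axis, all 10 effects were below 0, from -0.37 for CLEC1B to -0.048 for VWF. The markers were thus on average lower in high intake steers, although 57.6% of all transcript clusters, and 61.6% of those with a mean at or above the median, also had an intake effect below 0. The median was -0.14 for the 10 markers, -0.21 for the sinusoidal and -0.082 for the pan-endothelial and large-vessel markers, against -0.033 over all transcript clusters. Only CLEC1B had an unadjusted p at or below 0.05 in limma, where 2.86% of all transcript clusters did, 1.64% of them with an effect below 0. After quantile normalization or subtraction of each array's median, 10 of 10 markers were still below 0, against 49.7% and 50.3% of all transcript clusters. With the array sets as a block, 7 of 10 were, against 45.0%, and CLEC4G, CDH5 and PLVAP had effects of 0.10, 0.047 and 0.024. Without the block, intake effects were also below 0 in 4 of 4 smooth muscle genes (median -0.26). They were in 6 of 9 stellate cell and fibroblast genes (median -0.16). Medians were above 0 for the hepatocyte, Kupffer cell, cholangiocyte, T and NK cell, B and plasma cell, red cell and platelet lists.

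For the interaction, 5 of 10 markers were below 0, against 55.1% of all transcript clusters. The effects ran from -0.74 for CLEC1B to 0.44 for CDH5. CLEC1B alone had an unadjusted p at or below 0.05 in limma, against 2.81% of all transcript clusters (1.66% with a negative interaction). STAB1, LYVE1, CLEC1B and OIT3 had a negative interaction, as did VWF, whereas STAB2, CLEC4G, PECAM1, CDH5 and PLVAP had a positive one. PECAM1, at 0.028, was negative after quantile normalization, at -0.037, and with array weights, at -0.082. PLVAP, at 0.098 with all arrays weighted alike, was also negative with array weights, at -0.022.

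**Figure D2:**
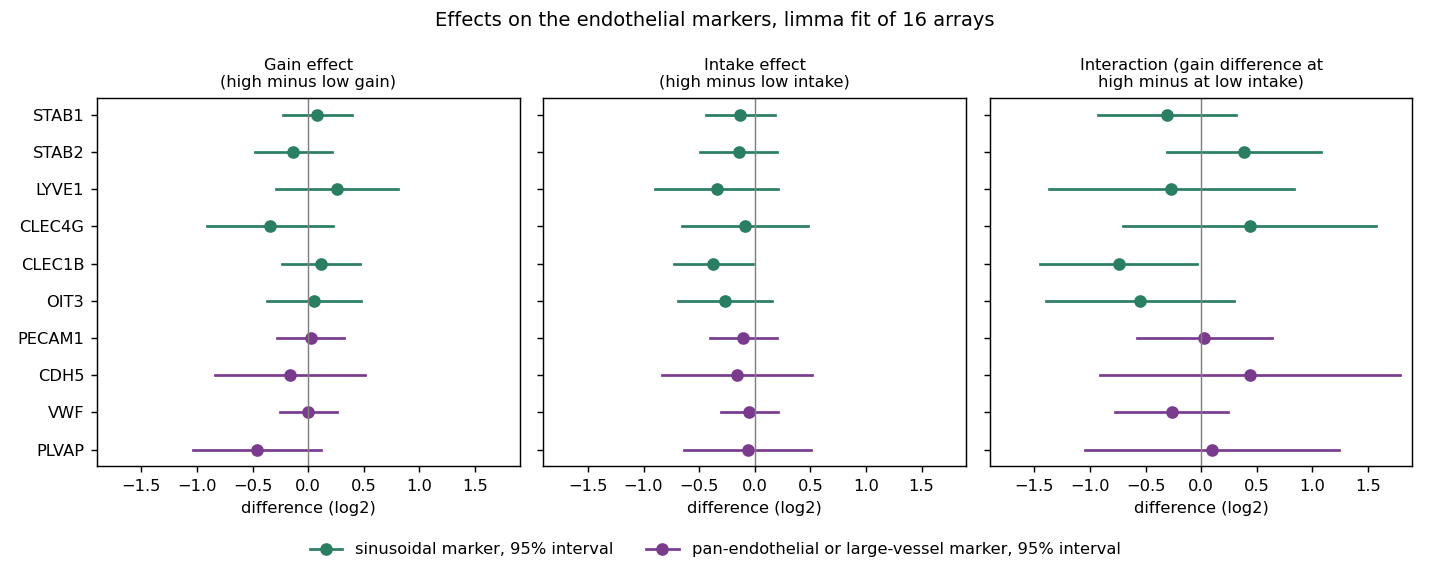
Gain effect, intake effect and interaction (x axes, log2 difference) of each endothelial marker in the limma fit of 16 arrays, with points for the estimate and bars for its 95% interval. The intake points of all 10 markers lie left of 0, and only the intake and interaction intervals of CLEC1B leave out 0.

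To set the sinusoidal markers against the others, each marker was centred on its mean over the 16 steers. The centred values were averaged, per steer, over the 6 sinusoidal and the 4 pan-endothelial and large-vessel markers, called vessel genes for short. PECAM1 and CDH5 are pan-endothelial and so not specific to large vessels. The scores therefore compare the marker lists and cannot separate sinusoidal from large-vessel endothelium. The sinusoidal mean was highest in the HL group, 0.16 ± 0.35, followed by 0.067 ± 0.39 in the LL, -0.071 ± 0.32 in the LH and -0.15 ± 0.23 in the HH group (log2, SD, n = 4). The mean of the vessel genes was 0.14 ± 0.29 in the LL group, 0.010 ± 0.51 in the LH, -0.048 ± 0.19 in the HL and -0.10 ± 0.39 in the HH group. Neighbours in both orders differed by less than the spread between steers.

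Sinusoidal minus vessel values were 0.26, 0.059, -0.0085 and 0.51 in the HL steers and 0.25, 0.13, -0.27 and -0.31 in the HH steers. In the LH group they were 0.051, -0.53, 0.033 and 0.12, and in the LL group 0.031, -0.063, 0.018 and -0.29. The difference was thus most to the side of the sinusoidal markers in the HL group, at 0.20 ± 0.23. It was close to 0 in the others, at -0.050 ± 0.28, -0.081 ± 0.30 and -0.075 ± 0.15, with the ranges of all groups overlapping. The group contrasts of this difference were 0.16 for gain, -0.13 for intake and -0.25 for their interaction, against a pooled SD of 0.25 between steers of a group. Within array sets 1 and 2 the gain contrast was 0.32 and 0.16, the intake contrast -0.074 and -0.018, and the interaction 0.32 and -0.76, so that the interaction had no common sign. No test was made of these scores, since the markers were chosen with results known.

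**Figure D3:**
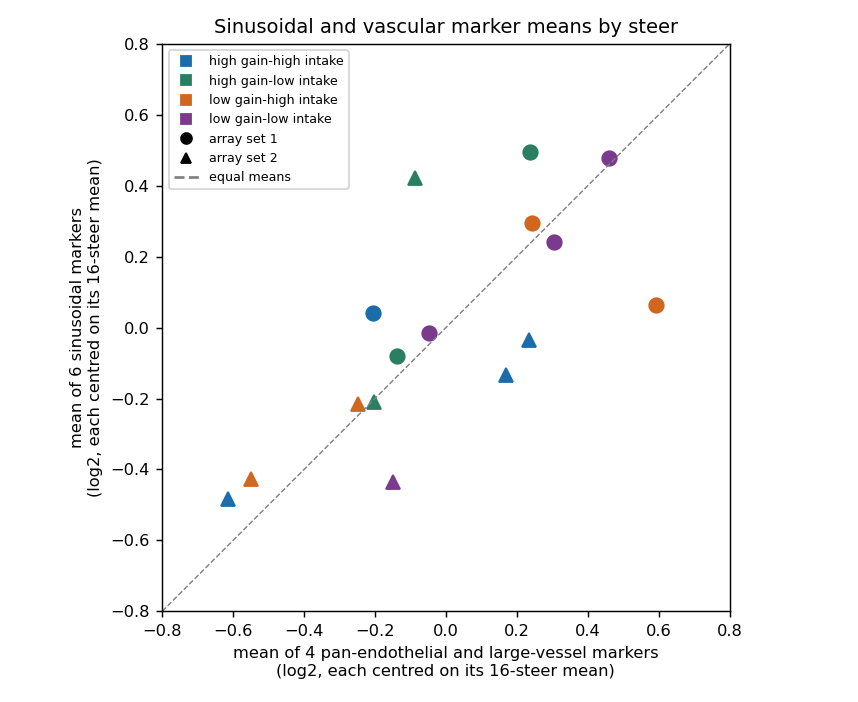
Mean of the 6 sinusoidal markers (y axis) against the mean of the 4 pan-endothelial and large-vessel markers (x axis) in each steer, in log2 units with each marker centred on its 16-steer mean, coloured by group and shaped by array set. The steers spread along the dashed line of equal means, and the sinusoidal mean is above 0 in 6 of 8 steers of array set 1 and 1 of 8 of set 2.

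Both means rose and fell together, with Pearson's r of 0.56 over the 8 steers in each array set, given as a description of means taken from the same arrays. The 16-steer SD was 0.32 for the sinusoidal mean, 0.34 for the vessel mean and 0.25 for their difference. Within array set 1 these SDs were 0.22, 0.29 and 0.24 and within set 2 they were 0.29, 0.30 and 0.28. HH steer 2 was below the 16-steer mean for all 10 markers and the lowest of all steers for 4 of them. LH steer 4 and LL steer 4 were each the lowest for 3. At the other end, LL steer 3 was the highest for 3 markers and above the mean for 9, and HL steer 1, LH steer 1 and LL steer 2 were also above the mean for 9. The 3 steers at the low end were all in array set 2, and the 4 at the high end all in array set 1.

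Correlations between the markers were therefore taken within each array set of 8 steers, for 45 pairs in each and 90 in all. They were positive for 36 pairs in set 1 and 40 in set 2, and for 33 pairs in both. Counts for pairs of other genes were not taken, so the counts here only describe the markers. Of the 90, 17 had an exact permutation p of 0.05 or less, and 1 remained after Benjamini-Hochberg adjustment. This was STAB2 with CLEC4G in set 1, with r = 0.95 (adjusted exact permutation p = 0.0112, Spearman's rho 0.98 with adjusted p = 0.0357). It was 0.81 without the 2 steers farthest from the median of STAB2 (exact permutation p = 0.0333). In set 2 the same pair had r = 0.39 (adjusted exact permutation p = 0.651, rho 0.49 with adjusted p = 0.487).

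CDH5 and PLVAP were the pair with the highest r common to both sets, 0.86 (rho 0.88) and 0.83 (rho 0.86), with adjusted exact permutation p of 0.129 and 0.172. Without the 2 steers farthest from the median of CDH5, r was 0.81 and 0.70. CDH5 also moved with CLEC4G, at 0.75 (rho 0.83) and 0.77 (rho 0.59), and with STAB2, at 0.70 (rho 0.81) and 0.77 (rho 0.93). The adjusted exact permutation p were 0.192 and 0.179 for CLEC4G and 0.259 and 0.172 for STAB2. Without the 2 steers farthest from the median of the sinusoidal gene, r was 0.57 and 0.78 with CLEC4G and 0.44 and 0.73 with STAB2. STAB1 and OIT3 had r of 0.73 and 0.79 (adjusted exact permutation p of 0.235 and 0.192), which fell to 0.51 and 0.37 without 2 steers.

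Of the 45 pairs, 2 were negative in both sets and 10 had opposite signs. LYVE1 and CLEC1B had r of -0.60 in set 1 and 0.78 in set 2 (rho -0.38 and 0.55, adjusted exact permutation p of 0.470 and 0.192), which became 0.17 and 0.14 without the 2 steers farthest from the median of LYVE1, so both rest on those steers. In set 1 one of them was LL steer 3, at 14.52 for LYVE1 and 9.46 for CLEC1B. CDH5 and VWF had r of 0.86 in set 1 and -0.17 in set 2 (adjusted exact permutation p of 0.0804 and 0.852). In all, 4 of the 15 sinusoidal pairs, 1 of the 6 vessel pairs and 3 of the 24 mixed pairs had r above 0.5 in both sets. Median r in sets 1 and 2 was 0.31 and 0.55 within the sinusoidal markers, 0.47 and 0.39 within the vessel genes and 0.35 and 0.32 between them.

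**Figure D4:**
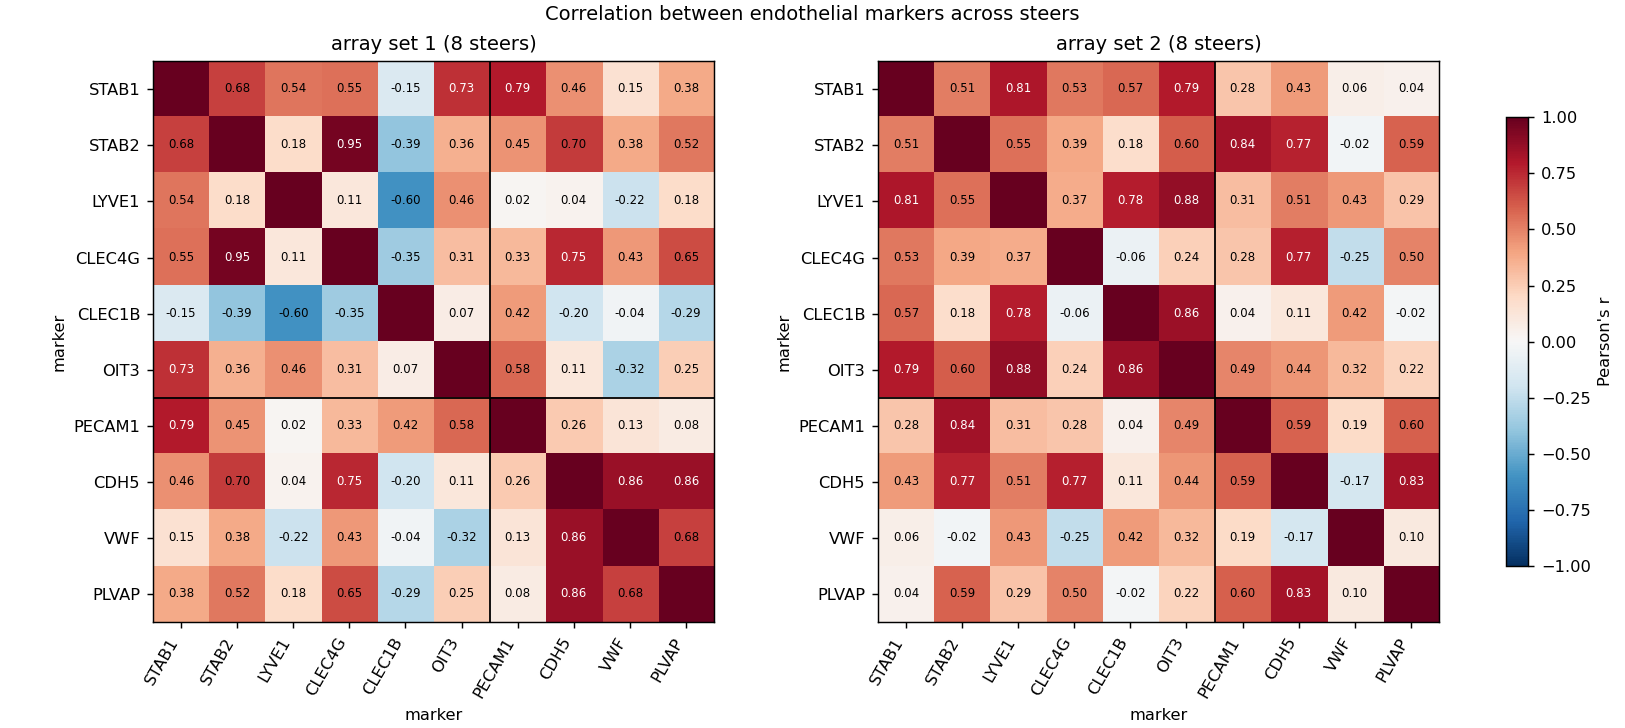
Pearson's r between each pair of the 10 endothelial markers (both axes) over the 8 steers of array set 1 (left) and of array set 2 (right), with black lines between the 6 sinusoidal and the 4 pan-endothelial and large-vessel markers. CDH5 and PLVAP are high in both panels, at 0.86 and 0.83, and the row of CLEC1B is mostly negative in set 1 and mostly positive in set 2.

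The genes whose pattern over steers was most like the marker means were named by the mean of r within the 2 sets, over 18276 gene symbols outside the lists. For the sinusoidal mean these were MAP3K3, a kinase of endothelial and inflammatory signalling, at 0.86, MB21D2 at 0.84, CPED1 at 0.83, OSTM1, a lysosomal chloride transport subunit, at 0.83 and WDFY3, an autophagy adaptor, at 0.83, where the 95th percentile of all ranked genes was 0.45. For the vessel mean they were UCP2, a mitochondrial carrier, at 0.88, FCHO2, an endocytosis protein, at 0.88, SMCO1 at 0.87, RAC1, a small GTPase of the cytoskeleton, at 0.87 and MPEG1, a macrophage perforin, at 0.86, with a 95th percentile of 0.51. These are the top of a ranking over 8 steers per set and are given as a description.

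Other genes of liver endothelium were read in the same way. Of 14 measured genes that mark sinusoidal endothelium in other mammals (4 more of the list, MRC1, CLEC4M, FCN2 and FCN3, were not named by the annotation used), 0 had an unadjusted p at or below 0.05 over the 4 groups in limma, as with the ordinary F, against 2.33% and 2.72% of all transcript clusters. There was 1 with the array sets as a block, and 1 each with quantile normalization, median subtraction and array weights. FCGR2B, the Fc receptor that clears immune complexes, was 10.79, 11.58, 11.44 and 11.14 in the HH, HL, LH and LL groups. DNASE1L3, a secreted nuclease, was 11.90, 12.09, 12.07 and 12.20, and F8, coagulation factor VIII, 9.68, 9.86, 9.56 and 9.48 in the same order. The intake effect was below 0 in 11 of the 14, with a median of -0.066, against 57.6% of all transcript clusters. The interaction was also below 0 in 11, with a median of -0.15, against 55.1%. After quantile normalization and median subtraction, the intake effect was below 0 in 10 and 10 of the 14, against 49.7% and 50.3% of all transcript clusters. The interaction was then below 0 in 8 and 9, against 49.9% and 48.6%.

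The interaction was called in 2 of these 14 genes, in opposite directions, against 2.81% of all transcript clusters. EHD3, a membrane trafficking protein, had an interaction of 1.37 (limma unadjusted p = 0.0290), 1.85 and 0.58 within array sets 1 and 2. Its values in the LL steers were 9.79, 10.89, 10.11 and 9.06, against 9.68, 8.45, 9.84 and 9.06 at HH, 9.44, 8.16, 8.44 and 9.29 at HL and 9.52, 9.07, 9.02 and 8.44 at LH. The LL group held the 2 highest steers and overlapped with all others. CTSL, a lysosomal protease, had an interaction of -0.77 (limma unadjusted p = 0.0375), -0.97 within each set, with group means of 6.34, 6.80, 6.54 and 6.24.

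Of 11 genes that mark the central and portal ends of the sinusoid or its adjoining vessels, JAG1 was called, 1 of 11 against the 2.33% of all transcript clusters. JAG1 encodes a Notch ligand of portal vessels and bile ducts. It was 9.01, 8.70, 9.10 and 9.24 in the HH and 8.65, 8.31, 8.86 and 8.82 in the HL steers, against 9.97, 9.29, 9.09 and 9.77 in the LH and 9.38, 9.44, 9.24 and 9.13 in the LL steers. High gain steers lay below low gain steers with a small overlap, between 9.09 and 9.24. The gain effect was -0.58 (standard error 0.14, exact permutation p = 0.00109), -0.75 and -0.35 within array sets 1 and 2. The p over the 4 groups, 0.00392 in limma (adjusted p = 1.00), stayed between 0.00126 and 0.0148 when each steer was left out in turn.

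WNT2, WNT9B and RSPO3, the endothelial signals that pattern the lobule, were not called, with unadjusted p of 0.758, 0.488 and 0.883 in limma. DLL4, another Notch ligand of endothelium, had an interaction of -0.69 (limma unadjusted p = 0.0331), -1.16 and -0.12 within the sets. The 7 measured cholangiocyte genes, which share the portal tract with JAG1, had 0 called and group means of 8.37, 8.30, 8.35 and 8.30 in the order HH, HL, LH, LL. Their part in the JAG1 result was not tested.

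Among 25 measured pan-endothelial genes, 0 were called over the 4 groups. KDR and FLT1, the receptors of vascular endothelial growth factor, had group means of 11.49, 11.62, 11.49 and 11.92 and of 9.18, 9.22, 9.04 and 9.15 (unadjusted p of 0.394 and 0.944 in limma). EMCN, an endothelial sialomucin, was 8.98, 9.37, 8.90 and 9.27. CLDN5, a tight junction protein, was the only one of the 25 with a called contrast, an intake effect of 0.31 (limma unadjusted p = 0.0467, against 2.86% of all transcript clusters called), 0.20 and 0.21 within the sets and not called with the sets as a block. The intake effect was below 0 in 17 of 25, with a median of -0.073, against 57.6% of all transcript clusters. After quantile normalization and median subtraction it was below 0 in 15 and 15, against 49.7% and 50.3%. With the array sets as a block it was in 14, against 45.0%.

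In the list of 17 large-vessel and activated endothelial genes, ANGPT2 and TGM2 were called, against 2.33% of all transcript clusters. Only ANGPT2 was with the ordinary F, and only TGM2 without dim transcript clusters, since ANGPT2 was itself dim and left out there. ANGPT2, the Tie2 ligand released by activated endothelium, had its highest mean in the HL group. Its values there were 7.37, 7.66, 6.88 and 8.26, against 6.12 to 7.27 in all other steers. Limma's unadjusted p for ANGPT2 over the 4 groups was 0.000635 (adjusted p = 0.9998). Its gain effect was 0.78 over all steers, and 0.84 and 0.65 within array sets 1 and 2. The interaction of ANGPT2 was -0.98, the lowest of the list, so the gain difference was larger at low intake. TGM2, a crosslinking enzyme also made by other cells, had its highest mean in the LL group, 10.39, and lost its call when any 1 of 3 steers was left out. Its unadjusted p was 0.0305 in limma and 0.0677 in the ordinary F, and its interaction was 2.30 over all steers, and 1.85 and 2.09 within the sets. The adhesion genes SELE, SELP, VCAM1 and ICAM1 had unadjusted p of 0.714, 0.236, 0.520 and 0.330 in limma. ACKR1, a chemokine-binding protein of venules, had a gain effect of -0.27 (limma unadjusted p = 0.0444), -0.12 and -0.49 within the sets.

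Of 4 measured lymphatic genes, PDPN, the ligand of the CLEC1B receptor, was 7.10, 7.16, 7.28 and 7.39 in the HH, HL, LH and LL groups (limma unadjusted p = 0.672), and FLT4 and CCL21 were not called either. PROX1 was, with a gain effect of -0.57 (exact permutation p = 0.0124), -0.83 and -0.48 within the sets. PROX1 is also a hepatocyte gene, so that it does not mark lymphatic vessels in whole liver.

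**Figure D5:**
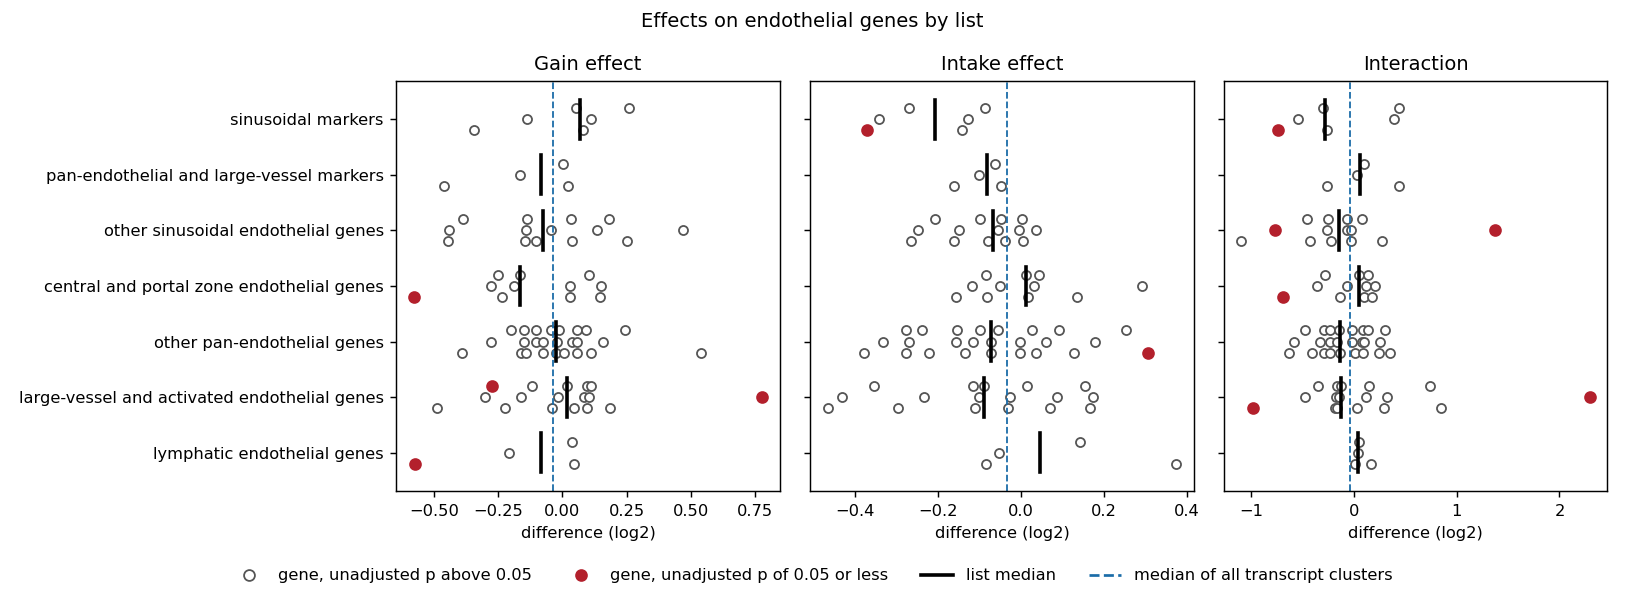
Gain effect, intake effect and interaction (x axes, log2 difference) of each gene in 7 endothelial lists (y axis), with filled points for an unadjusted p at or below 0.05, a black bar for the list median and a dashed line for the median of all transcript clusters. The intake median of the sinusoidal markers lies at -0.21, to the left of the other lists, and filled points are few in every row.

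Lectins and scavenger receptors of other liver cells were set beside the markers, as these gene families overlap. Of 14, 3 were called over the 4 groups, against 2.33% of all transcript clusters: the macrophage genes CD163 and MARCO, and CLEC9A, a lectin of cross-presenting dendritic cells. With each steer left out in turn 1 to 4 of the 14 were, and CD163 and MARCO were not called by the ordinary F. CLEC9A is next to CLEC1B in the gene order of the RefSeq annotation. Its group means were 6.56, 7.09, 7.21 and 7.41 in the order HH, HL, LH, LL, so that its lowest group was that of CLEC1B but its highest was not. Of the 8 genes within 4 positions of CLEC1B, CLEC9A was the only one called in limma, the other unadjusted p running from 0.0522 for CLEC7A to 0.931. Of the 8 around CLEC4G, 1 was called, PRR36 (limma unadjusted p = 0.0403), and the others ran from 0.185 to 0.845. Of the measured neighbours of STAB1, STAB2, LYVE1, OIT3, PECAM1, CDH5, VWF and PLVAP, 0 were called. Over all transcript clusters 2.33% were called.

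Markers of the other liver cells were read over the 4 groups in the same way. None of 14 hepatocyte, 9 stellate cell and fibroblast, 10 T and NK cell, 6 B and plasma cell and 5 red cell genes was called over the 4 groups, and 2 of 11 Kupffer cell genes, CD163 and MARCO, and 2 of 4 smooth muscle genes, CNN1 and MYH11, were, against 2.33% of all transcript clusters. MYH11 was not called under any of the 6 alternatives fitted with all steers, CD163 not without dim transcript clusters, by the ordinary F, with the array sets as a block or with array weights, and MARCO not after quantile normalization or by the ordinary F. With each steer left out in turn, 0 to 3 of the Kupffer cell and 1 to 3 of the smooth muscle genes were. The Kupffer cell list had group means of 11.15, 10.85, 11.31 and 11.59 and the smooth muscle list of 9.83, 10.28, 9.56 and 9.65, in the order HH, HL, LH, LL. The smooth muscle list was thus highest in the HL group. Its list mean ranged from 9.57 to 10.90 there, from 9.57 to 10.27 at HH, from 9.12 to 9.92 at LH and from 9.11 to 9.996 at LL. CD163, a scavenger receptor of macrophages, also had its highest mean there, with 11.02, 11.42, 10.38 and 10.92 in the same order, whereas the Kupffer cell list was lowest in that group. The gain effect of CD163 was 0.57 over all steers, and 0.30 and 0.96 within array sets 1 and 2. The gain effect was below 0 in 9 of the 11 Kupffer cell genes, against 58.3% of all transcript clusters. The part of these cells in the marker values was not tested.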

How the data were processed

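The study's liver RNA was hybridised to Affymetrix Bovine 1.1 ST arrays, 1 array per steer. The deposited log2 values were made by the authors in Affymetrix Expression Console with RMA, after a correction for guanine and cytosine content and a signal space transformation, and the submitters' processing notes also name Transcriptome Analysis Console. Neither software versions nor a genome build are stated (not given in the sources used here). RNA integrity varied between samples, and its value per steer was not in these sources. Groups came from the labels. The array annotation gave 1 gene symbol to 18790 transcript clusters, several to 385 and none to 7598. The deposited table held no value column of samples outside this series.

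The deposited log2 values were used as they stood. Limma 3.58.1 in R 4.3.3 (lmFit, eBayes) was fitted with 1 mean per group over all 26773 transcript clusters, and the moderated F and 3 contrasts were corrected with the Benjamini-Hochberg procedure across all of them. Called means an unadjusted p at or below 0.05. The interaction is the gain difference at high intake minus that at low intake. Two-sided exact permutation tests exchanged steers between groups, over 2627625 partitions into 4 groups of 4 or 12870 choices of 8 of 16 (numpy 2.4.6, Python 3.11.15). The smallest p of the latter is 0.000155. The fit was tested on simulated data. The 4 arrays per group limit the precision.

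The 10 markers and all lists were chosen with earlier results of these data known. All 10 markers were named, with up to 4 genes of each other list with the smallest p over the 4 groups among those called, and 5 genes most like each marker mean. The other list genes given with values were chosen after their values were seen, for a called contrast or as known genes of the list. Of genes with several transcript clusters, the one with the highest mean was read. ENG, RSPO3 and PODXL had several, and the interaction of ENG was -0.48 in one and 0.24 in the other. Alternatives were quantile normalization, subtraction of each array's median, leaving out transcript clusters with a mean below the median, the ordinary F named in the methods, the array sets as a block, array weights, leaving out each steer, and other choices of markers for the scores.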

Additional observations from a re-analysis of the deposited data

Results flagged for a closer look

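For each of the 10 markers and 4 groups, the gap between the most extreme steer and its nearest neighbour was set against the range of the group, and 2 of the 40 sets of 4 steers had 1 steer standing apart by Dixon's test, which by chance marks about 1 in 20. CLEC1B was 9.55 in LH steer 3, against 9.95 to 10.03 in the other 3 steers of the group, and the gap was 0.842 of the group's range. VWF was 7.68 in HL steer 3, against 7.14 to 7.21 in the other 3, and the gap was 0.877 of the range. Neither steer stood apart in any other marker.

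The gain difference of CLEC1B depended on intake in the limma contrast, by -0.74 with an unadjusted p of 0.0409 and an adjusted p of 1.00. It was the only 1 of the 10 markers with such a difference, against 2.81% of all transcript clusters. High gain steers were lower than low gain steers at high intake, by -0.26, and higher at low intake, by 0.48.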

How the results depend on the processing

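No paired analysis was possible because the labels give no number that steers of different groups share, and the harvest day of each steer was not in the sources used here. Each of the 10 markers had 1 transcript cluster, so averaging several changed nothing for them. No alternative gave a transcript cluster with an adjusted p below 0.05 (0 in each). The number of markers called over the 4 groups, 1, was 0 with quantile normalization and 0 to 1 with each steer left out. For gain it was 1 with array weights (CLEC4G, -0.54, limma unadjusted p = 0.0345) and 0 to 1 with each steer left out. For intake it was 0 with quantile normalization, median subtraction and the array sets as a block (CLEC1B, limma unadjusted p of 0.0831, 0.0516 and 0.0595), and 0 to 2 with each steer left out. For the interaction it was 0 to 1. Over all transcript clusters, the 624 called over the 4 groups became 275 without dim ones, 1111 with the block, 1597 with array weights and 489 to 945 with each steer left out. Gain calls, 932, were 453, 1404 and 2243 under the first 3 of these. Intake calls, 767, were 327 without dim ones and 1452 with weights. Interaction calls, 753, were 294 without dim ones and 1322 with the block.

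The sign of small effects turned. With the block, the intake effects of CLEC4G, CDH5 and PLVAP were 0.10, 0.047 and 0.024 and the gain effect of CDH5 was 0.043. With array weights, the gain effects of OIT3, PECAM1 and VWF were -0.044, -0.040 and -0.039, the intake effect of PLVAP 0.012 and the interactions of PECAM1 and PLVAP -0.082 and -0.022. With quantile normalization, the interaction of PECAM1 was -0.037. With each steer left out, gain effects were -0.017 to 0.18 for OIT3, -0.054 to 0.079 for PECAM1, -0.35 to 0.022 for CDH5 and -0.062 to 0.037 for VWF. Intake effects were -0.28 to 0.032 for CLEC4G, -0.35 to 0.021 for CDH5, -0.10 to 0.015 for VWF and -0.21 to 0.064 for PLVAP. Interactions were -0.12 to 0.14 for PECAM1 and -0.16 to 0.40 for PLVAP. The interaction of the sinusoidal minus vessel difference, -0.25, was 0.32 within array set 1 and -0.76 within set 2, and -0.40 to -0.15 with each steer left out. Its gain contrast was then 0.081 to 0.20 and its intake contrast -0.18 to -0.055. The cause was not tested. With 4 arrays per group, differences within the intervals given for each marker could not be resolved.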
